A study of Mus musculus with 6 samples.

Results

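The HOX genes measured here with their cofactors were *Hoxa5*, *Hoxa7*, *Hoxa9*, *Hoxa10*, *Hoxb3* and *Hoxb4*, the TALE cofactor genes *Meis1* and *Pbx3*, and *Hlf*, 9 of the 54532 genes in the deposited table. They were taken by gene symbol from a list of names. RNA-seq was done on LSK cells, the bone marrow fraction without lineage markers and with Sca1 and c-Kit that holds hematopoietic stem and progenitor cells (HSPCs), to see what the loss of *Myh9*, the gene of non-muscle myosin heavy chain IIA, does to their transcripts. There were 3 libraries from *Myh9*fl/fl;no cre mice (CTRL) and 3 from littermate *Myh9*fl/fl;*Mx1*-cre mice (cKO), all on the C57BL/6 strain, with 100000 sorted cells for each library. Every mouse, controls included, carried the floxed *Myh9* alleles and was given poly I:C, a double-stranded RNA that induces interferon, at 5 mg/kg, and cells were taken on day 4 after the first dose. The mice were 5 to 6 weeks old at the first dose by the study's methods, which give 3 doses where the sample labels give 2. The *Mx1* promoter that drives Cre answers to interferon and is not limited to blood cells, and control mice carry no Cre. How many mice each library came from is not stated in the sources used here, so p-values measure the spread between these libraries.

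HOX proteins are homeodomain transcription factors, encoded in 4 clusters in which gene order follows the order of use along the body axis. In blood they are known mainly from stem and progenitor cells, where HOXA9 and HOXB4 favor self-renewal, and their levels normally decline as cells mature. They bind DNA together with TALE homeodomain proteins of the PBX, MEIS and PKNOX (PREP) families. HLF is not a homeodomain protein: it belongs to the PAR bZIP family and is a marker of hematopoietic stem cells. In acute leukemia, high *Hoxa9* and *Meis1* often go with rearrangements of *KMT2A*, whose product keeps HOX chromatin active.

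Levels are given as FPKM, in which fragment numbers are divided by the length of the gene and the size of the library, so that genes of different length can be compared. Libraries held 17571544 to 19894562 reads on genes. Where the 6 libraries averaged 1 FPKM or more, a gene was tested on log2(FPKM + 1) with limma, 11552 genes in all, with Benjamini-Hochberg adjustment over all of them, and a gene is called higher or lower at an adjusted p under 0.05. Over all genes tested, 40.5% were called, 19.9% higher and 20.6% lower in cKO, so a call by itself is common here. With the study's thresholds, a change beyond 2-fold and an unadjusted p under 0.05, applied to this limma fit, 2.13% passed. None of the 9 genes was among them. The study's own count was larger, and the scale and filter behind it are not stated. Libraries of one group had correlations across genes of 0.991 to 0.993 and libraries of different groups 0.974 to 0.977. *Myh9* itself was 23.0, 22.6 and 22 FPKM in CTRL and 18.4, 19.96 and 17.7 in cKO (log2 fold change -0.26 ± 0.0487 (SE), n = 3 and 3, adjusted p = 0.00642 in limma). The floxed part is exon 1, and reads over the other exons count for the gene as well, so this value is not a measure of deletion. *Myh9* had an adjusted p of 0.0581 once the dependence on GC content and length was taken out of each library.

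The cells were checked against their gate. *Ly6a*, the gene of Sca1, was 95.4 ± 1.87 FPKM in CTRL and 89.5 ± 3.63 in cKO (SD, n = 3), *Kit* was 23.9 ± 0.454 and 21.5 ± 0.334, and *Cd34* was 63.8 ± 0.557 and 66.0 ± 1.90. Of the 7 markers of the gate and of HSPCs, 3 were called higher, with *Flt3* and *Procr* among them, and *Kit* was lower (sum 213 to 216 against 222 to 232). Of the B cell defining transcripts, *Pax5* was listed at 0 in CTRL. Genes of other lineages were not absent and moved with the groups. All 7 erythroid markers were higher in cKO, with a summed level of 419 to 424 FPKM in CTRL and 752 to 777 in cKO. Among them, *Hba-a1* (0.812 ± 0.205 FPKM in CTRL, 3.47 ± 1.17 in cKO) passed the filter through cKO alone. All 3 megakaryocyte markers tested of 6 were higher (sum 56.7 to 60.4 against 125 to 130), while *Gp1bb* was at 0 throughout. Of 7 neutrophil and monocyte markers, 5 were tested and 4 were lower, and most of their sum (6847 to 6905 against 3490 to 3539) came from the granule genes *Mpo* and *Elane*. The log2 fold changes of these 4 ran from -0.77 for *Mpo* to -1.46 for *Csf1r*. Of 5 mast cell and basophil markers, 4 were higher (sum 89.8 to 102 against 147 to 157). Among them, *Cma1* (mean 0.360 FPKM in CTRL, 4.63 in cKO) passed the filter through cKO alone. Of 6 B cell and plasma cell markers, *Jchain* and *Cd79a* were higher and *Sdc1* lower (sum 33.9 to 34.9 against 64.2 to 71.4). *Cd79a* (0.743 ± 0.199 FPKM in CTRL, 1.52 ± 0.161 in cKO) passed the filter through cKO alone. Of 6 T and NK cell markers only *Nkg7* passed the filter and was lower, and it made up nearly all of their sum (350.4 to 359.7 against 279 to 285). Below the filter and not tested, *Klrb1c*, *Cd4*, *Cd3g* and *Cd3e* were higher in each cKO library than in each CTRL library. *Cd3g* was 0.0495 ± 0.0297 FPKM in CTRL and 0.654 ± 0.127 in cKO, and *Cd3e* was at 0 in CTRL and 0.234 ± 0.0496 in cKO. Of 6 stromal and endothelial markers only *Pecam1* passed and was lower, and it made up nearly all of their sum (19.5 to 20.3 against 12.4 to 13.3). Below the filter and not tested, *Col1a2* and *Col1a1* were higher in each cKO library than in each CTRL library. The groups overlapped for *Cxcl12*, *Cdh5* and *Lepr*. The part of these lineage genes in the results below was not tested. In sorted bulk cells, fewer cells of a type and less RNA per cell cannot be told apart.

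Of the 9 genes, 7 passed the filter on low values and 3 were called, *Hoxa9*, *Hoxa10* and *Hlf*, all higher in cKO. This is 42.9% of those tested, near the 40.5% called over all genes, so the number of calls is no result about these genes as a group. The median log2 fold change of the 7 was 0.10, where the median of all genes tested was -0.0096. *Pbx3* and *Hoxb3* were below the filter in both groups. Groups did not overlap for 4 of the 7, as they did not for 54.0% of all genes tested.

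The sequences before the transcription starts of the 3 genes called are shown because these are the members whose transcripts differed between groups. They are the 250 bases upstream of each RefSeq start on GRCm38.p6 (the mm10 build of the files), read 5′ to 3′ on the strand of the gene, which is minus for all 3. Capitals mark the only match found to the motifs named below. The *Hoxa9* stretch, chr6:52227371-52227620, lies in introns of the longer *Hoxa9* transcripts (the gene spans 52223100 to 52231089). *Hoxa10* has 2 RefSeq starts, the proximal one with chr6:52234940-52235189 before it, inside an intron of the gene, and the distal one with chr6:52240855-52241104, just outside it (the gene spans 52231197 to 52240854). The *Hlf* stretch is chr11:90390918-90391167 (the gene spans 90336536 to 90390895). None of the 4 stretches overlaps an exon of GENCODE M21.
Hoxa9: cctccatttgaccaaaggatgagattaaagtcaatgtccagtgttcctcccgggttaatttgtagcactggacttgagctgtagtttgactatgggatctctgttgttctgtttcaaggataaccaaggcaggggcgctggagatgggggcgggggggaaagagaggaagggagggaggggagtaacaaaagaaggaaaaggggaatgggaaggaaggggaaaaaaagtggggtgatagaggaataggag
Hoxa10 proximal: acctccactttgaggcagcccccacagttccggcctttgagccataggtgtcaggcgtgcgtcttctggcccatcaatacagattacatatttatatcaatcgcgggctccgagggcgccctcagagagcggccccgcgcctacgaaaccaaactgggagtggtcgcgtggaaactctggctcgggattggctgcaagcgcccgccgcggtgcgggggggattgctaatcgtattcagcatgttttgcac
Hoxa10 distal: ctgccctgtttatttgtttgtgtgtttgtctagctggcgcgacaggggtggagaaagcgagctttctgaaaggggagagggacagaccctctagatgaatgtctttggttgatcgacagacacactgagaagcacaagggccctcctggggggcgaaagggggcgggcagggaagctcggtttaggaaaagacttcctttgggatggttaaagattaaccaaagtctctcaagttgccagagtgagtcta
Hlf: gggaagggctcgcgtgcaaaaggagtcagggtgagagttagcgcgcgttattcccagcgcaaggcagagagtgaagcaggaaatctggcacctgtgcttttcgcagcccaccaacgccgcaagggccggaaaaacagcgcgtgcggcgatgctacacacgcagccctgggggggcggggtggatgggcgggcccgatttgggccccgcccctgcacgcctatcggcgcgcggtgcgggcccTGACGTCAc

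These stretches differed in base composition. The *Hlf* stretch had 67.2% G and C with 26 CpG dinucleotides, the proximal *Hoxa10* stretch 59.2% with 20, the distal *Hoxa10* stretch 51.6% with 7 and the *Hoxa9* stretch 49.6% with 3, against a median of 52.4% and 6 over 32851 promoters. Both strands were searched for TGATNNAT (a HOX-PBX site), TGACAG (MEIS), TTACNTAA (PAR bZIP) and TGANTCA (AP-1), which 7.68%, 15.9%, 2.06% and 6.75% of all promoters hold, and 3.50%, 14.0%, 1.39% and 4.26% of the 10357 promoters of genes tested. None of these 4 was found in the 8 upstream stretches on hand, which belong to 7 of the 9 genes. TGACGTCA, the cyclic AMP response element, which was added after the sequences were seen, occurred once, starting 9 bases before the *Hlf* start, and 1.55% of all promoters and 2.59% of those of genes tested hold it.

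By the mean over all 6 libraries, the order of the levels was *Hoxa9*, *Hoxa7*, *Meis1*, *Hlf*, *Hoxb4*, *Hoxa5*, *Hoxa10*, *Pbx3* and *Hoxb3*. In CTRL alone the means ran from 12 FPKM for *Hoxa9* to 0.276 for *Hoxb3*. Over the 6 libraries, *Meis1* and *Hlf*, *Hlf* and *Hoxb4*, and *Hoxa5* and *Hoxa10* overlapped, so these neighbors were not separated, and the other neighbors were. *Hoxa10* lay below *Hoxa5* in the 3 CTRL libraries and above it in the 3 cKO libraries. *Hlf* had a lower mean than *Hoxb4* in CTRL (3.73 against 4.06 FPKM, with overlapping libraries), and in cKO its libraries (4.71 to 5.64) were all above those of *Hoxb4* (3.08 to 3.90).

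**Figure D1:**
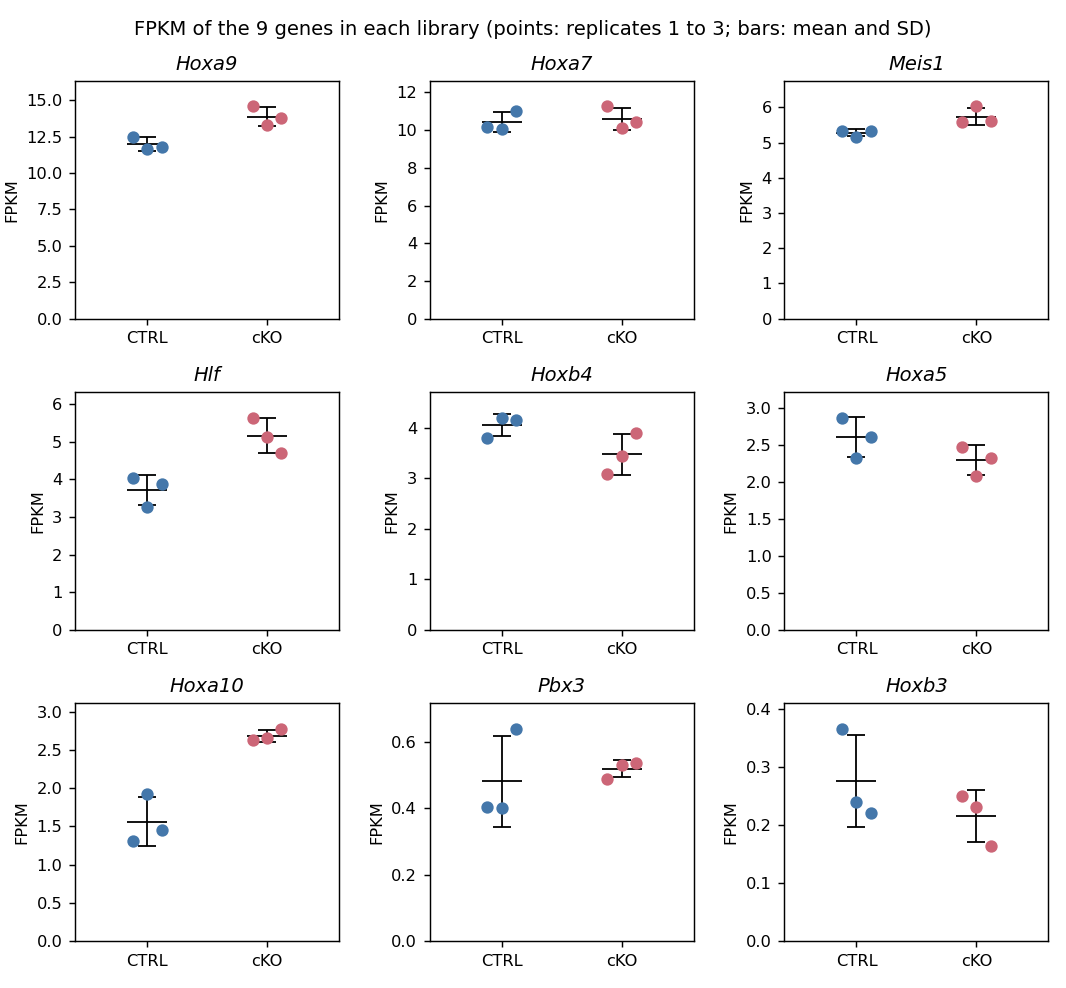
FPKM (vertical axes, from 0, a separate scale for each gene) of the 9 genes in the 3 CTRL and 3 cKO libraries. Points are libraries and bars are the mean and SD; for *Hoxa9*, *Meis1*, *Hlf* and *Hoxa10* every cKO point lies above every CTRL point, and for the other 5 the groups overlap.

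Among the posterior HOXA genes, *Hoxa9*, whose product promotes self-renewal of progenitors, was the highest HOX gene. It was 12.5, 11.6 and 11.8 FPKM in CTRL and 14.6, 13.3 and 13.8 in cKO. Every cKO library was above every CTRL library, and the mean rose 1.16-fold. Its log2 fold change was 0.20 ± 0.0469 (SE, n = 3 and 3, 95% interval 0.09 to 0.31, adjusted p = 0.0161 in limma). The call was lost without CTRL replicate 2 (adjusted p = 0.055) and without CTRL replicate 3 (0.0508), and it held without each of the other libraries. Each library had 1142 to 1522 reads on the gene, and 85 bases of its length are shared with the microRNA gene *Mir196b* on the same strand.

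*Hoxa10*, the neighbor of *Hoxa9* in the cluster and a HOX gene of early progenitors and megakaryocytes, had the largest change of the 9. It was 1.31, 1.93 and 1.45 FPKM in CTRL and 2.63, 2.65 and 2.78 in cKO, from 85, 111 and 91 reads and from 161, 158 and 169 reads. The cKO libraries lay close together and all above CTRL. The log2 fold change was 0.53 ± 0.0979 (SE, 95% interval 0.30 to 0.77, adjusted p = 0.00595 in limma). On this scale the pseudocount of 1 understates the change of a gene so low: the ratio of mean FPKM was 1.72, and the fold in a fit of the recovered reads (limma-voom) was 1.78. The call held in all 16 alternative fits in which the gene was tested, among them those without each library in turn.

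*Hoxa7*, the second HOX gene by level, was 10.1, 10.1 and 11 FPKM in CTRL and 11.3, 10.1 and 10.4 in cKO, and the groups overlapped. On the log2 scale the change was 0.02 (95% interval -0.11 to 0.15, adjusted p = 0.767 in limma), and without cKO replicate 1 its sign turned, to -0.0178. *Hoxa7* shares 586 bases, 20.4% of its length, with the antisense gene *Hoxaas3*, and whether the counting used strand is not given in the sources used here.

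*Hoxa5*, from the middle of the cluster, was 2.87, 2.33 and 2.61 FPKM in CTRL and 2.47, 2.07 and 2.32 in cKO. On the log2 scale the change was -0.13 (95% interval -0.32 to 0.06, adjusted p = 0.247 in limma), and the groups overlapped.

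*Hoxb4*, known for the expansion of stem cells when it is forced, was 3.80, 4.20 and 4.16 FPKM in CTRL and 3.08, 3.44 and 3.90 in cKO. Replicate 3 of cKO lay above the lowest control, so the groups overlapped. Its log2 fold change was -0.18 (95% interval -0.37 to 0.01), with an adjusted p of 0.114 in limma over all libraries and of 0.0452 without cKO replicate 3. *Hoxb3*, the gene next to it, had 13 to 31 reads in each library and 0.276 ± 0.0793 FPKM in CTRL against 0.216 ± 0.0457 in cKO (SD, n = 3). In the voom fit without a filter on FPKM its log2 fold change was -0.32 (adjusted p = 0.579), and 2250 bases, 52.9% of its length, are shared with the antisense gene *Hoxb3os*.

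*Meis1*, whose product is the partner of HOXA9 in progenitors, was 5.32, 5.16 and 5.34 FPKM in CTRL and 5.57, 6.03 and 5.62 in cKO. All cKO libraries were above all CTRL libraries by a small margin. The log2 fold change was 0.10 (95% interval -0.01 to 0.21, adjusted p = 0.125 in limma) and missed the threshold. It passed it in the voom fits of the recovered reads (adjusted p = 0.034, and 0.044 without a filter on FPKM) and with the GC and length trends removed (log2 fold change 0.18, adjusted p = 0.022). *Meis1* shares 1029 bases with *Gm37818* on its own strand and 896 with *Gm16140* on the other, of a gene length of 10532. *Pbx3*, a PBX gene that acts with HOXA9 in leukemia, was 0.403, 0.399 and 0.640 FPKM in CTRL and 0.489, 0.530 and 0.537 in cKO, from 43 to 75 reads. The groups overlapped, and its adjusted p was 0.664 in the voom fit without a filter.

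*Hlf* was 4.03, 3.27 and 3.88 FPKM in CTRL and 5.64, 5.14 and 4.71 in cKO. Every cKO library was above every CTRL library, with 385 to 535 reads in CTRL and 585 to 706 in cKO. The log2 fold change was 0.38 ± 0.0852 (SE, 95% interval 0.18 to 0.59, adjusted p = 0.0125 in limma) and the ratio of mean FPKM was 1.39. The call held in all 16 alternative fits in which the gene was tested, with a highest adjusted p of 0.04. For single genes, an exact two-sided permutation test of 3 against 3 libraries cannot go below p = 0.1, and it gave that value for *Hoxa9*, *Hoxa10*, *Hlf* and *Meis1*.

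**Figure D2:**
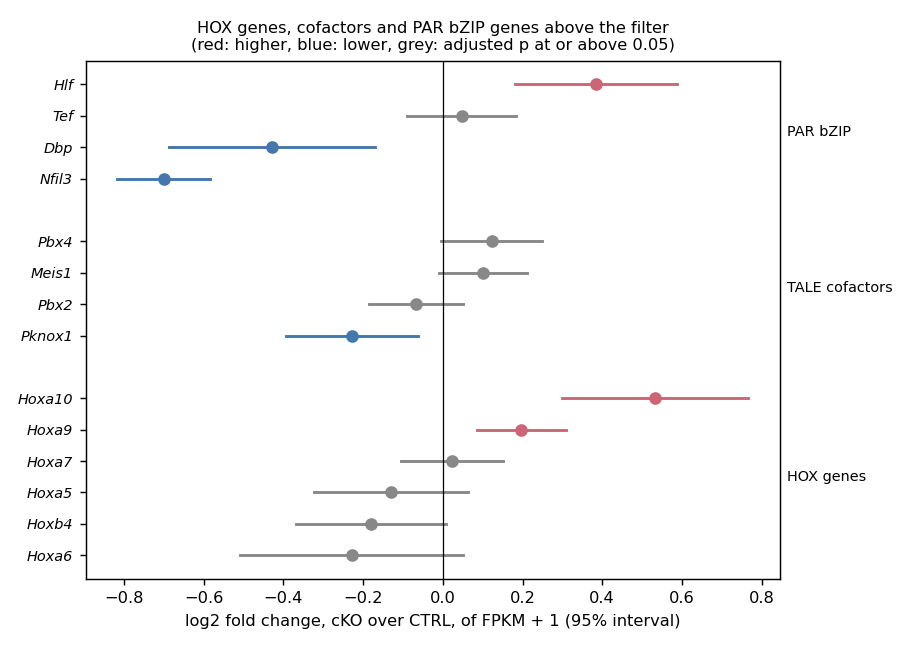
Log2 fold change (cKO over CTRL, of FPKM + 1) with its 95% interval for the tested HOX, TALE cofactor and PAR bZIP genes reported here. The related gene *Nfil3* is plotted under PAR bZIP. Red is higher, blue lower and grey not called at an adjusted p under 0.05. *Hoxa10* (0.53) and *Hlf* (0.38) lie farthest to the right, and *Nfil3* (-0.70) farthest to the left.

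The other HOX genes were read from the same table to place these 6. Of 40 HOX rows, 6 passed the filter, 5 in the HoxA cluster on chromosome 6 and 1, *Hoxb4*, in the HoxB cluster on chromosome 11. Of those tested, 2 were called, *Hoxa9* and *Hoxa10* (33.3%, against 40.5% over all genes tested). *Hoxa6*, the only tested HOX gene outside the list of 9, was 1.48 ± 0.245 FPKM in CTRL and 1.11 ± 0.240 in cKO (log2 fold change -0.23, adjusted p = 0.166 in limma), from 15 to 28 reads. Below the filter, *Hoxa2*, *Hoxa3*, *Hoxa4* and *Hoxb5* had at least 10 reads in some library. *Hoxa4* was 0.552 ± 0.301 FPKM in CTRL and 0.946 ± 0.257 in cKO, and the groups overlapped for each of these 4. All 10 HoxD rows had no read in any library, *Hoxd4* being listed under 2 identifiers, and no HoxC gene had more than 1 read. With 0 reads, a level of up to 0.151 to 0.17 FPKM for a gene of 1 kilobase (3 reads) would go unseen, counting error only.

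Summed over the HOX rows, the level was 34 ± 0.654 FPKM in CTRL and 36.5 ± 0.853 in cKO (SD, n = 3). The HoxA cluster made up 86.4% ± 0.667 of it in CTRL and 88.9% ± 1.02 in cKO. *Hoxa9* and *Hoxa7* together gave 65.8% ± 0.816 and 67.1% ± 1.80. The share of *Hoxa10* was 4.60% ± 1.05 in CTRL and 7.37% ± 0.324 in cKO, and that of *Hoxb4* 11.9% ± 0.838 and 9.54% ± 1.27. *Hoxa9* was 2.76 to 3.29 times as high as *Hoxb4* in CTRL libraries and 3.53 to 4.73 times in cKO libraries. These sums and ratios are given as levels, with no test.

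**Figure D3:**
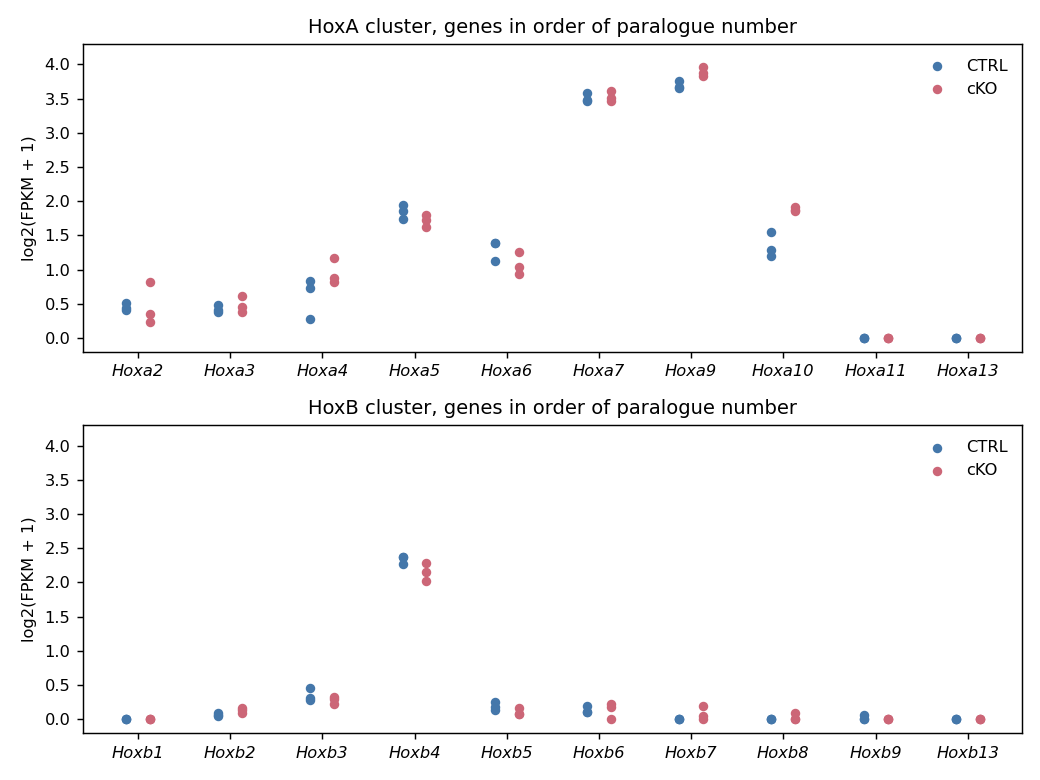
log2(FPKM + 1) of the HoxA and HoxB genes reported here, in order of paralogue number, in the 3 CTRL (blue) and 3 cKO (red) libraries. *Hoxa9* and *Hoxa7* stand highest, *Hoxa11* and *Hoxa13* are at 0, and *Hoxb4* is the only HoxB gene above 1 FPKM on average.

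Between the HOX genes, or within 10 kb of the HoxA and HoxB clusters, lay 34 other genes of the table, of which 2 passed the filter and neither was called. *Hotairm1*, a noncoding RNA of the HoxA cluster, changed by 0.10 on the log2 scale (adjusted p = 0.474 in limma). *Hoxb5os* was 0.629 ± 0.215 FPKM in CTRL and 1.399 ± 0.564 in cKO and passed the filter through cKO alone (adjusted p = 0.0686). *Hoxaas3*, antisense across *Hoxa3* to *Hoxa7*, did not reach the filter and had 14, 16 and 24 reads in CTRL and 36, 51 and 37 in cKO. All its cKO libraries were above CTRL, and its log2 fold change in the voom fit without a filter was 1.24 (adjusted p = 0.00676). *Gm11539* and *Hoxb3os* had at most 12 reads in any library, and their groups overlapped.

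Among the TALE cofactor genes, 5 of 9 were tested, and 1 was called, *Pknox1* (20% of 5, against 40.5% over all genes). *Pbx2* was the highest at 21.2 ± 1.23 FPKM in CTRL and 20.2 ± 0.655 in cKO (SD, n = 3), above every HOX gene, and *Pbx4* followed with 8.06 ± 0.451 and 8.87 ± 0.384. Neither was called (adjusted p = 0.319 and 0.109 in limma). *Pbx2* shares 227 bases, 6.24% of its length, with *Gpsm3* on its own strand. *Pknox1*, which encodes PREP1, was lower, with 4.83 ± 0.162 FPKM in CTRL and 3.99 ± 0.414 in cKO (log2 fold change -0.23, adjusted p = 0.0387). That call was lost when any library but cKO replicate 3 was left out, with adjusted p up to 0.113. *Meis2* and *Pknox2* had no reads. *Meis3*, named after its values were seen, had 4 to 7 reads in CTRL and 10 to 21 in cKO, and its log2 fold change in the voom fit without a filter was 1.57 (adjusted p = 0.0353).

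The PAR bZIP genes, the family of *Hlf*, and the related gene *Nfil3* did not move together. DBP, TEF and HLF activate the D-box elements of circadian genes, and NFIL3, a related bZIP protein, represses the same elements. All 4 genes were tested and 3 were called (75%, against 40.5% over all genes). *Nfil3* was 8.12, 8.91 and 8.77 FPKM in CTRL and 4.98, 4.98 and 4.75 in cKO, so that each cKO library was well below each control (log2 fold change -0.70, adjusted p = 0.00011 in limma). *Dbp* was 4.20, 4.19 and 3.53 FPKM in CTRL and 2.64, 3.23 and 2.26 in cKO (log2 fold change -0.43, adjusted p = 0.0199). The *Dbp* call was lost without CTRL replicate 1, CTRL replicate 2 or cKO replicate 1, with adjusted p of 0.0658, 0.0642 and 0.0575, and 18% of its length is shared with *Sphk2* on the other strand. *Tef* was 2.93 ± 0.130 FPKM in CTRL and 3.06 ± 0.146 in cKO (SD, n = 3, adjusted p = 0.548). *Hlf* was thus the only family member called higher.

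Proteins of the MLL (KMT2A) complexes and their partners keep HOX chromatin active. Of 17 such genes, 14 were tested, 2 were called higher and 5 called lower in cKO (50% of 14, against 40.5% over all genes, with 19.9% higher and 20.6% lower), and the median change was -0.11 on the log2 scale, where that of all genes tested was -0.0096. *Aff1*, an elongation factor gene and frequent fusion partner of *Kmt2a* in leukemia, had the largest change, with 5.85, 5.84 and 5.60 FPKM in CTRL and 3.42, 3.50 and 3.44 in cKO (log2 fold change -0.60, adjusted p = 0.000135 in limma). *Mllt1*, which encodes the acetyl-lysine reader ENL, fell from 23.0 ± 0.939 to 19.2 ± 0.738 FPKM (adjusted p = 0.00526), and *Kat7*, a histone acetyltransferase gene, from 22.1 ± 0.970 to 18.6 ± 0.474 (adjusted p = 0.00499). The other 2 lower genes, named after their values were seen, were *Men1* (log2 fold change -0.20, adjusted p = 0.017), whose product menin holds KMT2A to chromatin, and *Kmt2a* itself (-0.22, adjusted p = 0.0244). *Kmt2a* lost its call in 5 of 6 fits without 1 library (adjusted p up to 0.0785) and with the GC and length trends removed (log2 fold change -0.10, adjusted p = 0.241), and *Men1* lost its call without CTRL replicate 3 (adjusted p = 0.0546). The higher genes were *Dpy30* (0.26, adjusted p = 0.0108) and *Ash2l* (0.10, adjusted p = 0.0402), which encode core subunits shared by the methyltransferase complexes. *Ash2l* lost its call in each of the 6 fits without 1 library (adjusted p 0.0665 to 0.11), and *Dpy30* lost it with the GC and length trends removed (log2 fold change 0.14, adjusted p = 0.0949). *Cdx1*, *Cdx2* and *Cdx4*, upstream activators of HOX genes in the embryo, had no reads.

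Polycomb proteins keep HOX genes silent. Of 17 Polycomb genes, 16 were tested, 3 were called higher and 6 called lower (56.25%, against 40.5% over all genes), and the median change was -0.12 on the log2 scale. *Bmi1*, a gene of the PRC1 complex needed for stem cell self-renewal, was 11.6, 12.3 and 11.2 FPKM in CTRL and 13.8, 14.4 and 15.8 in cKO (log2 fold change 0.30, adjusted p = 0.00666 in limma). *Cbx7*, the chromobox gene of stem cells, was 0.922 ± 0.0868 FPKM in CTRL and 1.35 ± 0.102 in cKO (log2 fold change 0.29, adjusted p = 0.0275), and it passed the filter through cKO alone. *Eed*, of PRC2, was also higher (0.19, adjusted p = 0.025). *Cbx8*, another chromobox gene (-0.35, adjusted p = 0.0176), and *Jarid2*, which recruits PRC2 (-0.27, adjusted p = 0.00583), were among those called lower. Without 1 library, *Cbx7*, *Eed* and *Cbx8* each lost their calls in 4 of 6 fits, with adjusted p up to 0.0824, 0.074 and 0.0568. Over activators and Polycomb genes together, 5 of 30 were higher and 11 lower (53.3% called). Over all genes tested, 40.5% were called, 19.9% higher and 20.6% lower. In fits without 1 library these numbers were 2 to 4 and 6 to 9, lowest for the lower genes without CTRL replicate 3.

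**Figure D4:**
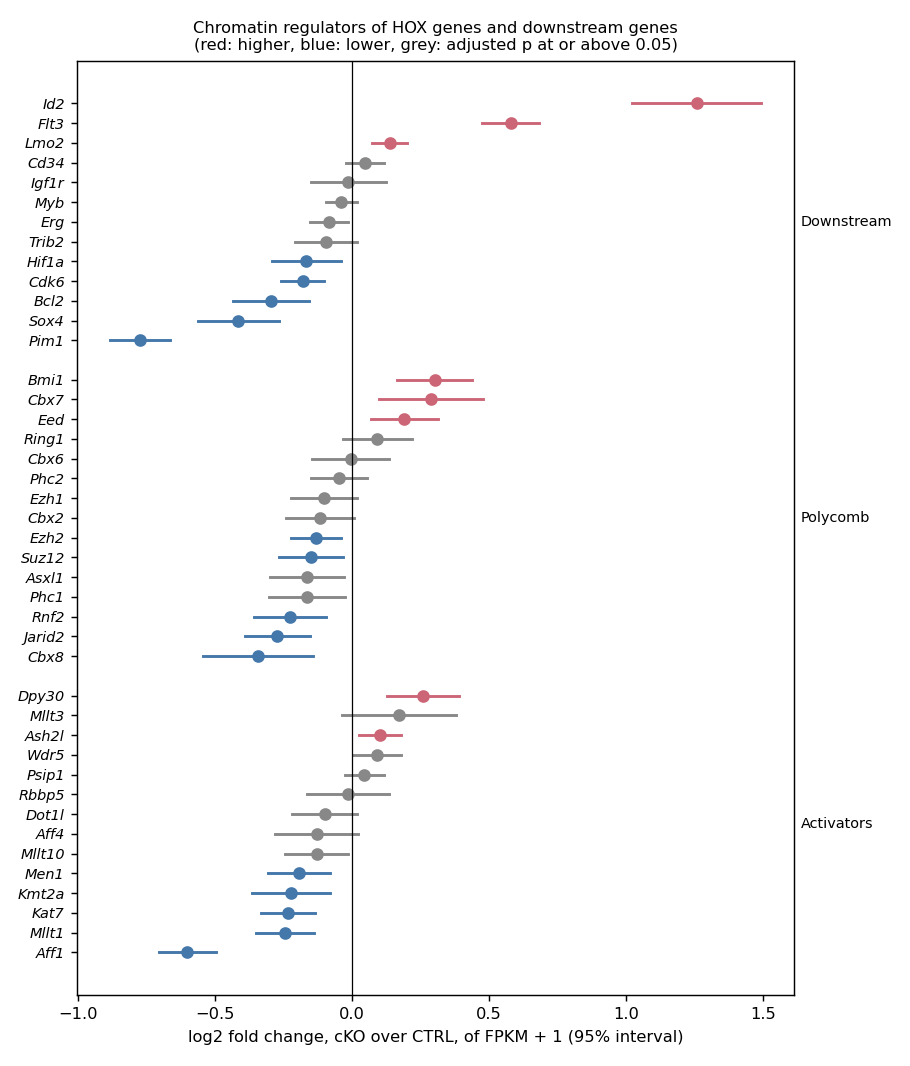
Log2 fold change (cKO over CTRL, of FPKM + 1) with its 95% interval for the tested activators of HOX chromatin, Polycomb genes and genes downstream of HOXA9 or MEIS1 that are reported here; red is higher, blue lower and grey not called. Both chromatin lists hold genes on either side of 0, and *Id2* (1.26) and *Pim1* (-0.77) are the extremes.

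Genes that HOXA9 or MEIS1 control in other systems were read as well. Of 16, 13 were tested, 3 were called higher and 5 called lower (61.5%, against 40.5% over all genes), and the median change was -0.09 on the log2 scale. *Flt3*, the cytokine receptor gene and a target of MEIS1, was 20.6, 19.1 and 19.7 FPKM in CTRL and 28.8, 30.3 and 31.1 in cKO (log2 fold change 0.58, adjusted p = 0.000147 in limma). *Id2*, an inhibitor of bHLH transcription factors, was 3.51, 2.65 and 3.65 FPKM in CTRL and 8.74, 9.02 and 9.76 in cKO (1.26, adjusted p = 0.000183). *Lmo2*, a bridging factor of the stem cell transcription complex, was higher by less (0.14, adjusted p = 0.00781), and with quantile normalization its adjusted p was 0.265. The kinase gene *Pim1* fell from 98.5 ± 0.880 to 57.2 ± 3.64 FPKM (SD, n = 3, log2 fold change -0.77, adjusted p = 6.01e-05). *Sox4* (-0.42, adjusted p = 0.0025) and the anti-apoptotic gene *Bcl2* (-0.30, adjusted p = 0.0078) were lower as well. The other 2 lower genes were *Cdk6* and *Hif1a*, named after their values were seen. *Hif1a* lost its call in 5 of 6 fits without 1 library (adjusted p up to 0.127), and both lost theirs with the GC and length trends removed, which left 3 lower genes.

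By Pearson correlation of log2(FPKM + 1) over the 6 libraries, the genes most like *Hoxa10* among 7169 compared were *Tmem70* (r = 0.997), *Ubp1* (r = 0.997) and *Vdac2* (r = 0.996), and 721 of the 7169 had r over 0.9. *Hoxa10* was the called gene of the 9 with the largest rise, and none of the 9 was called lower. The points share the same 2 groups of 3 libraries, and *Tmem70*, a mitochondrial gene, rose from 29.0 to 33.8 FPKM in CTRL libraries to 39.6 to 40.9 in cKO.

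**Figure D5:**
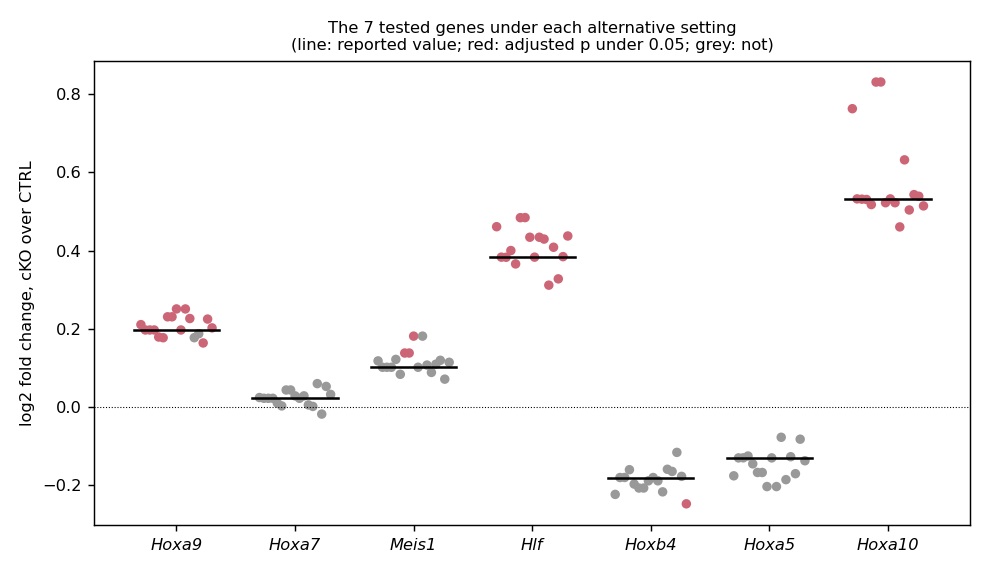
Log2 fold change (cKO over CTRL) of the 7 tested genes in each alternative fit (points; red where the adjusted p is under 0.05, grey where not), with the reported value as a line. *Hoxa10* and *Hlf* are red throughout, *Hoxa9* is grey in 2 fits, and *Hoxa5* and *Hoxa7* are never red.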

How the data were processed

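RNA-seq of LSK cells from 3 CTRL and 3 cKO libraries was used. Libraries were made with an Illumina TruSeq RNA kit, and the submitters' processing notes name HISAT2 2.0.5 and mm10; the counting program and its use of strand are not given in the sources used here. The authors deposited FPKM values, scaled by gene length and library size, with gene lengths, symbols and positions. The gene length deposited by the authors equalled the summed exons of GENCODE M21 for all 9 genes. After multiplication by length, 100% of the FPKM values in a library fell on multiples of a single step (within 0.05 reads), so reads were recovered. They gave depth, a floor of 3 reads and an alternative test.

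log2(FPKM + 1) was fitted with limma 3.58.1 (lmFit, eBayes with a trend, two-sided; R 4.3.3) where the libraries averaged 1 FPKM or more, with no covariate, and calls were made at an adjusted p under 0.05 (Benjamini-Hochberg). The fit was tested on simulated reads with a dispersion of 0.0025. It called 42.9% of genes simulated at 1.25-fold, 87.0% at 1.5-fold and 0.0704% of unchanged genes. Small changes can thus go uncalled. Fold changes on this scale understate those of low genes. Exact permutation tests over the 20 relabellings were run for single genes. Alternatives were a pseudocount of 0.1, no filter, a mean of at least 5 FPKM, median of ratios, quantile normalization, TPM and voom on recovered reads. Others were removal of each library's GC and length trends (mgcv 1.9.3), a replicate block, that block with the trend removal, and leaving out each library. The last was the study's rule (more than 2-fold, unadjusted p under 0.05) applied to the main fit. A voom fit of genes with at least 10 reads was chosen after seeing the data. Tables, tests and plots were made in Python 3.11.15 (pandas 2.3.3, numpy 2.4.6, scipy 1.17.1, matplotlib 3.10.9), and the R package data.table was version 1.17.8.

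The 9 genes and all lists were chosen with earlier results of these data known. Named genes were the 9, HOX genes past the filter or with at least 10 reads in some library, TALE and PAR bZIP genes past the filter, genes of at least 10 reads in or near the HoxA and HoxB clusters, the 3 largest rises and falls called in each other list, *Myh9*, and the 3 genes most like the called member with the largest rise or fall (mean of at least 5 FPKM). Some genes of the lists are not reported here by name or plotted; counts over a list include them. Promoters came from RefSeq tables.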

Additional observations from a re-analysis of the deposited data

How the results depend on the processing

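Over all genes tested, the numbers called stayed within 1.5 times in 17 alternative fits. With the study's rule (a change beyond 2-fold, unadjusted p under 0.05) applied to the main fit, they fell to 165 higher and 81 lower. Under that rule 0 of the 9 genes were called higher, and at an average of 5 FPKM or more 1 was, since *Hoxa10* and *Hlf* were then not tested; leaving out 1 library gave 2 to 3 higher and 0 to 1 lower. Among HOX genes 1 was higher with a mean of at least 5 FPKM, and 1 to 2 higher and 0 to 1 lower without 1 library. *Hoxa7* ranged from -0.0178 (reversed, without cKO replicate 1) to 0.0601 when 1 library was left out, and *Hoxb3* moved to -0.32 with voom. Among TALE genes, 1 was higher with voom, 2 with voom without a filter and 1 with GC and length trends removed. The 1 lower TALE gene became 0 with no filter, with a mean of at least 5 FPKM (not tested), with quantile normalization and with trends removed, and 0 to 1 without 1 library. Of chromatin regulators, 3 were higher with no filter; without 1 library 2 to 4 were higher and 6 to 9 lower. Of downstream genes, 3 were lower with trends removed. The causes were not tested.

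The libraries share replicate numbers. Same-numbered libraries deviated from their group means with correlations of -0.0046, -0.0112 and -0.0262, so no shared deviation was seen. These values cannot show whether same-numbered libraries were paired as littermates or handled together, which is not stated in the sources used here. With the replicate block, the calls of *Hoxa9* (adjusted p = 0.0173), *Hoxa10* (0.016) and *Hlf* (0.0204) held, TALE genes called lower were 0 and chromatin regulators called higher 3. With the block and trends removed together, 0 TALE genes, 7 chromatin regulators and 3 downstream genes were lower. Under the other scalings (TPM, quantile and median of ratios) the median log2 fold change of all genes was -0.0277 to -0.0096, a shift of less than 0.1. Depth limits *Pbx3*, *Hoxb3* and *Hoxa6*, which had 13 to 75 reads in a library, and intervals from reads would cover counting error only.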

Other observations

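Homeobox genes outside the HOX clusters and the PBX, MEIS and PKNOX families, as the transcription factor column of the deposited table marks them, numbered 185, and 15 were tested. The 15 include *Tgif1* and *Tgif2*, TALE genes of another family, of which *Tgif1* was lower (log2 fold change -0.41, adjusted p = 0.000465 in limma). They were looked at after the data were seen. Of the 15, 3 were higher and 5 lower in cKO (53.3%, where 40.5% of all genes tested were called), with a median log2 fold change of -0.0095. *Hopx*, a homeodomain-only gene without DNA binding that marks stem cells in several tissues, was 1.93 ± 0.219 FPKM in CTRL and 5.55 ± 0.868 in cKO (SD, n = 3, log2 fold change 1.16, adjusted p = 0.000345 in limma), a larger rise than that of *Hoxa10*. *Hlx*, a homeobox gene of myeloid progenitors, was lower, with 7.80 ± 0.494 FPKM in CTRL and 3.69 ± 1.03 in cKO (log2 fold change -0.93, adjusted p = 0.00478). Both calls held in all alternative fits, 16 for *Hopx* and 17 for *Hlx*. *Hhex*, needed for blood progenitors, was 36.5 ± 1.16 FPKM in CTRL and 38.1 ± 2.11 in cKO (adjusted p = 0.353) and was the second highest of these genes after *Cers2*, a ceramide synthase gene that carries a homeobox-like domain and was higher in cKO (log2 fold change 0.46).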
